A study of Mesocricetus auratus with 9 samples.

Results

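In the liver of the Syrian hamster (Mesocricetus auratus), 122 of the 17090 genes listed had a higher scaled read level in all 6 hibernating animals than in any of the 3 summer animals, with a mean at least 75% above the summer mean in both hibernating stages sampled. These genes were chosen from the counts themselves. Reads were scaled to CPM, a gene's count divided by the library's total count and multiplied by 1000000. A gene was taken when its mean over the 9 libraries was at least 1 CPM, its lowest hibernating library lay above its highest summer library, and both the torpor late mean and the arousal early mean were at least 75% above the summer mean. The levels against summer are therefore a description of what was chosen, and nothing is read from a test of them. The name "raised throughout hibernation" rests on 2 sampled points of the torpor cycle, late torpor and early arousal, and other points of the cycle were not analysed here.

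The 9 animals fell into 3 stages of 3 animals, and each animal gave 1 liver library. Summer euthermic animals, the group outside hibernation, had a mouth temperature of 35.7 ± 0.5 °C when killed. Torpor late animals were at 9.0 ± 0.9 °C, and arousal early animals, roused by gentle handling after more than 3 days of torpor, were at 35.0 ± 2.1 °C. The labels do not say what the spread of these temperatures is. Hibernating animals had been held in darkness, so season, light and hibernation cannot be told apart in any level set against summer. The labels give no strain, age, sex, genotype or agent, and arousal here was induced rather than spontaneous. Total counts per library ranged from 29675688 to 47565345.

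The Syrian hamster is a facultative hibernator, which enters hibernation in the cold and short days of winter and alternates bouts of deep torpor with short returns to normal body temperature. Liver metabolism in hibernators is known to move from carbohydrate towards stored fat as fuel, and transcription and translation are known to slow down at the low body temperature of torpor. In bulk liver RNA, fewer cells of a type and less RNA per cell cannot be told apart. The file gives Ensembl identifiers without names, and the reference gene table matched 0 of the 122 members to a symbol, so their functions, positions and sequences are not given, and the liver label could not be checked against marker genes. No more than 2 identifiers are printed for that reason, and other members are described by their rank.

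The 3 parts of the rule removed genes at different points. Of the 17090 genes, 11077 (64.8%) reached a mean of 1 CPM. Among these, all 6 hibernating libraries lay above all 3 summer libraries for 764 genes, or 6.9%, and below them for 903 genes. Most of the 764 differed by small factors, since 570 were less than 75% above summer in both stages, 43 in torpor late alone and 29 in arousal early alone. A further 82 genes were at least 75% above summer in both stages but had at least 1 hibernating library that did not clear the summer range. The same rule turned downwards found 109 genes. The 122 members are 1.1% of the genes at 1 CPM or more.

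Members just inside and just outside the limits were nearly alike. The lowest smaller fold among the members, where the smaller fold is the lower of the 2 stage means over the summer mean, was 1.755, and the highest among the genes left out with no overlap was 1.737. The narrowest gap among the members placed the lowest hibernating library at 1.003 times the highest summer library, and the nearest gene left out was at 0.998 times. The edge of the set is a cut through a continuous range of values, as the plot of fold in both stages shows.

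**Figure D1:**
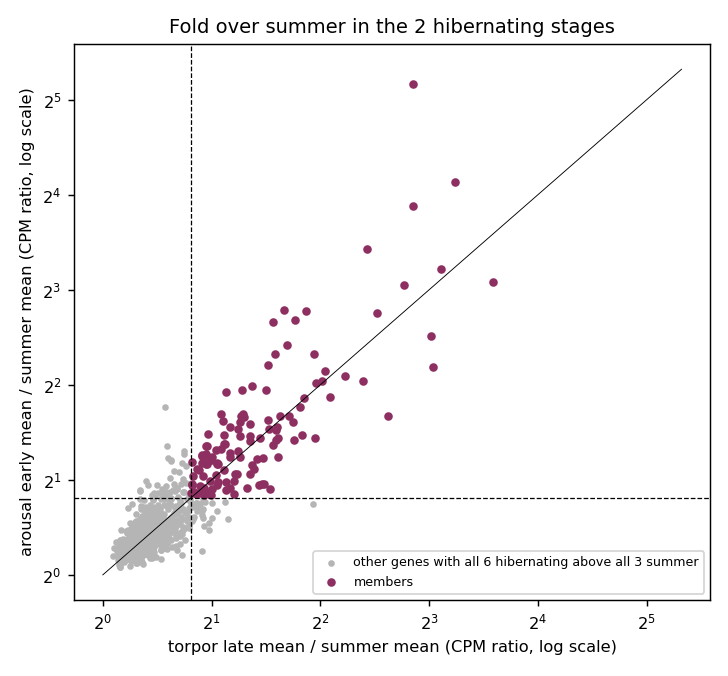
Torpor late mean over summer mean (x axis, CPM ratio, log scale) against arousal early mean over summer mean (y axis, CPM ratio, log scale) for the 764 genes whose 6 hibernating libraries all lay above the 3 summer libraries; each point is a gene, the dashed lines mark 75% above summer and the solid line equal folds. The 122 members (dark points) run on from the cloud of other genes without a break, and reach 12.03-fold in torpor late and 35.9-fold in arousal early.

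The members stood a little over 2-fold above summer in the typical case. The fold of torpor late over summer had a median of 2.40 and ranged from 1.755 to 12.03. The fold of arousal early over summer had a median of 2.57 and ranged from 1.79 to 35.9. The smaller of the 2 folds was at least 2 for 80 members, at least 3 for 27 and at least 5 for 9. Large folds were thus held by few genes, and the smaller fold had a lower quartile of 1.93 and an upper quartile of 2.88.

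Few members were separated from summer by a wide gap in every animal. The lowest hibernating library was at least 2 times the highest summer library for 10 members and at least 1.5 times for 34, with a median of 1.31 over all 122. Each of the 6 hibernating libraries taken alone was at least 75% above the summer mean for 46 members, and 5 of the 6 were for another 36. For 16 members 3 or fewer libraries reached it, and the fewest was 2. By library, between 78 members (torpor late 3) and 114 members (arousal early 2) were at least 75% above the summer mean. The stage means of members with few such libraries therefore leaned on some animals more than on others. These were not only members with small folds, since the member ranked 3 by smaller fold was among them.

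The map of all members by library shows this unevenness. The 5 members with at least a 10-fold range among the hibernating animals ranked 3, 4, 5, 8 and 24 by smaller fold. Narrow ranges were found among the upper rows too: the highest hibernating library was 1.63 times the lowest for the member ranked 2, against 2.41 times for the last.

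**Figure D2:**
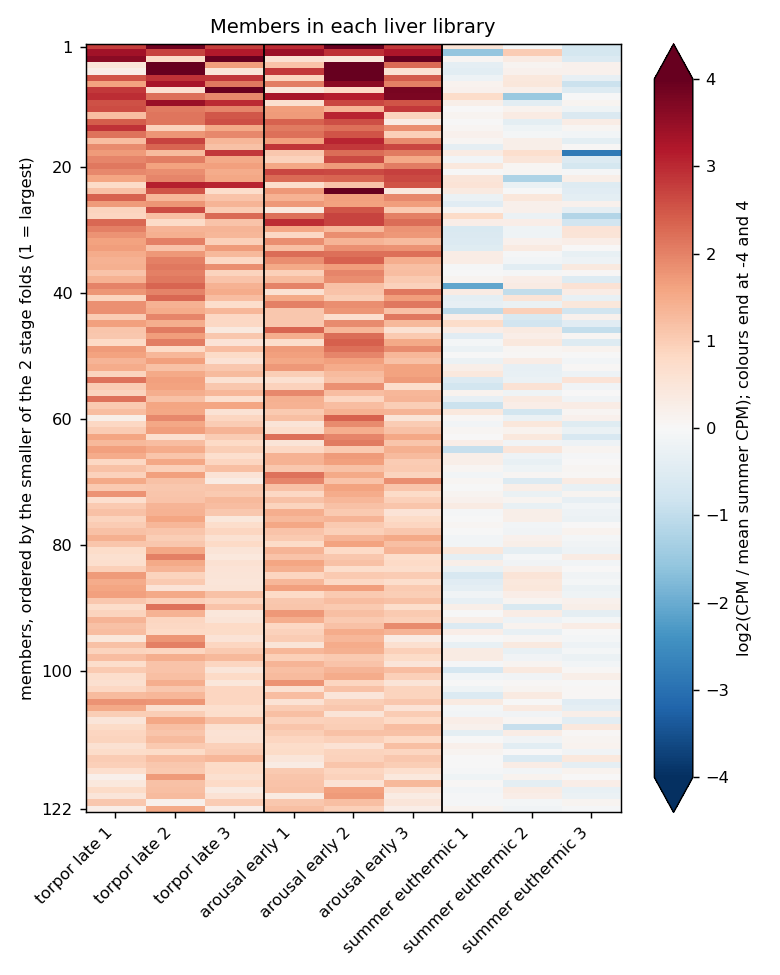
Each row is 1 of the 122 members, ordered by the smaller of the 2 stage folds, and each column is 1 liver library; colour gives log2 of CPM over the mean summer CPM of that gene. All 6 hibernating columns lie above the 3 summer columns in every row, as the rule demands, and several rows at the top have torpor late 2 and arousal early 2 as the darkest columns.

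Members differed widely in how many reads they received. Mean CPM over the 9 libraries ranged from 1.01 to 3123 with a median of 10.2. There were 61 members from 1 to 10 CPM, 47 from 10 to 100, 11 from 100 to 1000 and 3 above that. CPM is not divided by gene length, so this order is one of reads and not of transcript number. Members in the lowest class had a median smaller fold of 2.24, those from 10 to 100 CPM one of 2.17, and the 14 above 100 CPM one of 2.51. These medians differed little, but the rule cut the smaller fold from below in every class, so nothing is read from their likeness. Only 4 members had fewer than 10 counts in some library, and all 122 passed the filter on low counts of the test across genes.

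Together the members took a small share of each library. Their summed share of the counts was 0.462 ± 0.0348% in summer euthermic, against 1.24 ± 0.125% in torpor late and 1.52 ± 0.181% in arousal early (SD, n = 3 each). In CPM the sum was 5018, 4451 and 4385 in the summer animals. In torpor late it was 12420, 13678 and 11170, and in arousal early 13159, 15887 and 16595. The torpor late and arousal early ranges overlapped, with arousal early 1 below torpor late 2.

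A handful of genes made up most of that sum. The member with the most reads held 29.0% of the summed mean CPM, and the 10 members with the most reads held 79.6%. Without those 10, the sums were 1044 ± 53.7 CPM (SD, n = 3) in summer euthermic, 2588 ± 389 CPM (SD, n = 3) in torpor late and 2962 ± 638 CPM (SD, n = 3) in arousal early. The rule fixes the order of hibernating and summer libraries in any sum over members. Arousal early 2 was the highest library for the sum of the remaining 112 members, at 3696 CPM, where arousal early 3 had been the highest for all 122.

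**Figure D3:**
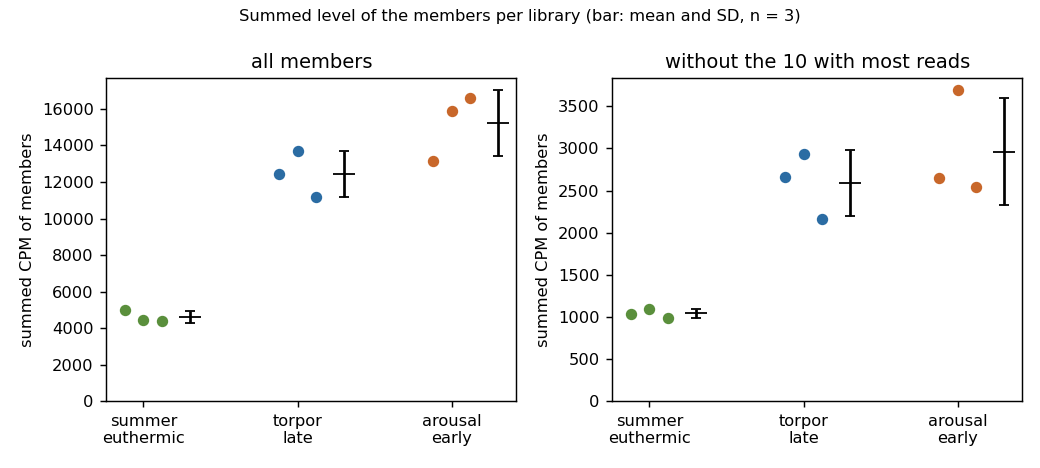
Summed CPM of the members (y axis, from 0) in each of the 9 libraries, for all 122 members (left) and without the 10 with the most reads (right); points are libraries and the black mark is the mean with the SD of 3 libraries. Summer libraries lie between 4385 and 5018 CPM on the left, while the hibernating libraries run from 11170 to 16595 CPM with overlap between torpor late and arousal early.

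By the naming rule, which took the largest smaller fold among the 71 members with a mean of at least 5 CPM, 2 members are given by identifier. ENSMAUG00000018544 was at 1.20, 1.45 and 0.784 CPM in summer euthermic, 13.95, 1.94 and 25.4 CPM in torpor late, and 1.74, 1.57 and 25.7 CPM in arousal early. In 3 hibernating animals, torpor late 1 and 3 and arousal early 3, it was near 14 to 26 CPM, and in the other 3 it stayed barely above the summer range. Its 12.03-fold (torpor late) and 8.46-fold (arousal early) means over summer describe neither set of animals. The counts behind the summer values were 52, 59 and 30.

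ENSMAUG00000007358 was at 1.55, 2.18 and 2.27 CPM in summer euthermic, 2.80, 34.3 and 6.32 CPM in torpor late, and 4.39, 74.5 and 9.68 CPM in arousal early. Torpor late 2 and arousal early 2 carried most of its level, and the animals of 1 stage differed by more than the stage means did. It averaged 7.23 times summer in torpor late and 14.8 times summer in arousal early. Both of those libraries were among the low hibernating ones for ENSMAUG00000018544.

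The member with the most reads behaved more evenly. It was at 1354, 418 and 1157 CPM in summer euthermic, 2905, 3744 and 2825 CPM in torpor late, and 4644, 4915 and 6140 CPM in arousal early. The 3 stages did not overlap, and its lowest hibernating library was 2.09 times its highest summer library. The member second by reads was at 614, 1365 and 869 CPM in summer euthermic, 3110, 1771 and 1371 CPM in torpor late, and 1725, 1967 and 1937 CPM in arousal early. Its torpor late 3 value cleared its summer euthermic 2 value by a factor of only 1.004. The third by reads was at 667, 361 and 620 CPM in summer euthermic, 1111, 2138 and 971 CPM in torpor late, and 1155, 866 and 2365 CPM in arousal early, so single animals of both hibernating stages were about as far apart as the stages were from summer.

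The narrowest range among hibernating animals belonged to a member of modest level. It was at 9.87, 8.24 and 9.90 CPM in summer euthermic, 20.9, 18.2 and 21.5 CPM in torpor late, and 19.9, 21.1 and 19.3 CPM in arousal early. Its highest hibernating library was 1.18 times its lowest, and both stages averaged 2.15 to 2.16 times summer. The widest range belonged to a member at 1.53, 2.28 and 2.27 CPM in summer euthermic, 2.46, 38.5 and 2.89 CPM in torpor late, and 14.3, 201 and 3.12 CPM in arousal early. There the highest hibernating library was 81.5 times the lowest, so its 35.9-fold mean in arousal early, the largest stage fold of any member, came mostly from arousal early 2.

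**Figure D4:**
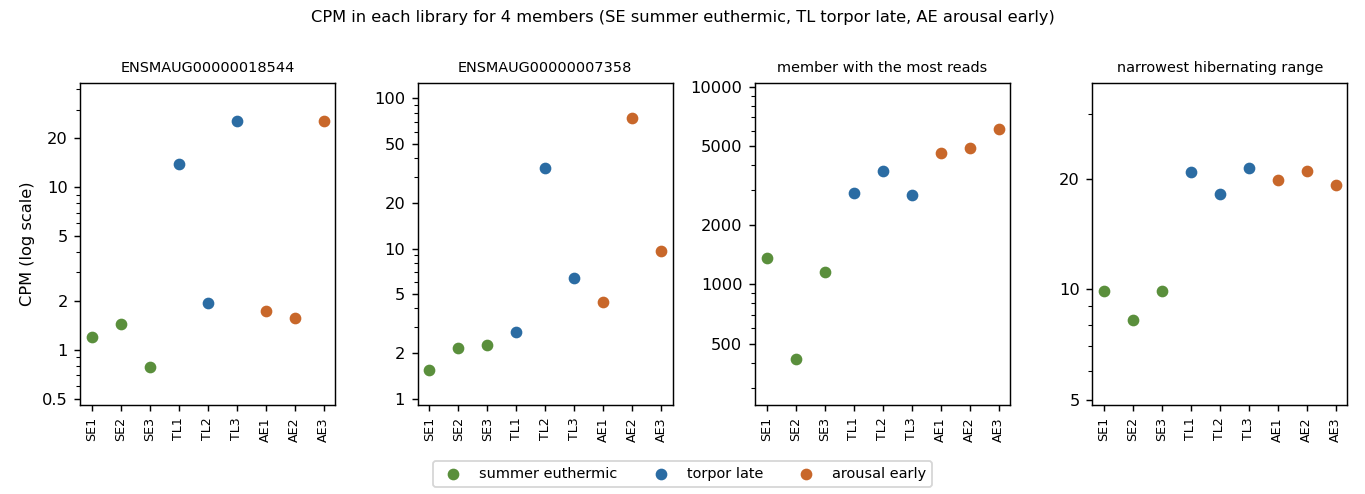
CPM (y axis, log scale, a range of its own in each panel) in each of the 9 libraries for 2 members given by identifier, the member with the most reads and the member with the narrowest hibernating range; each point is 1 library (SE summer euthermic, TL torpor late, AE arousal early). ENSMAUG00000018544 is high in TL1, TL3 and AE3 only, ENSMAUG00000007358 is highest in TL2 and AE2, and the last panel holds all hibernating libraries between 18.2 and 21.5 CPM.

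The 2 largest smaller folds of all were found at low counts. The first member was at 0.185, 0.123 and 0.0784 CPM in summer euthermic, from 8, 5 and 3 counts. It was at 0.876, 1.89 and 0.871 CPM in torpor late and 1.01, 4.84 and 0.919 CPM in arousal early, a smaller fold of 9.42. The second was at 0.116, 0.686 and 0.209 CPM in summer euthermic, 3.44, 2.22 and 3.05 CPM in torpor late, and 3.62, 2.58 and 3.19 CPM in arousal early, a smaller fold of 8.61. Its summer libraries held 5, 28 and 8 counts, and its hibernating libraries between 82 and 172.

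Spread between animals of a stage was wide for the members. The ratio of the highest to the lowest library had a median over the members of 1.74 in torpor late, 1.599 in arousal early and 1.597 in summer euthermic. Over all 11077 genes at 1 CPM or more, the medians were 1.30, 1.27 and 1.24 in the same order. Across the 6 hibernating animals the median ratio was 2.15 for the members, 2.05 for the 109 genes lowered by the mirrored rule and 1.5 for all genes at 1 CPM or more. It was at least 3 for 27 members, at least 5 for 9 and at least 10 for 5. The wider spread extended to the summer animals. Because the members were chosen by their levels in these same libraries, no test was made of the spread, and its cause was not tested.

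The highest values gathered in particular animals. Arousal early 2 was the highest of the 6 hibernating libraries for 39 members (32.0%), against 11.9% of all genes at 1 CPM or more. Torpor late 2 was the highest for 27 members (22.1%), close to the 22.8% of all genes. These libraries together were the highest pair for 29 members (23.8%), against 7.94% of all genes, and for 11 of the 27 members with at least a 3-fold range. Torpor late 3 was the lowest library for 46 members (37.7%), against 23.5% of all genes. Arousal early 2 had 31804620 counts, the second lowest total of the 9 libraries, and torpor late 2 had 39693010. The part of any feature of these animals in the members' levels was not tested. When the rule was applied without both libraries, an alternative chosen after the data were seen, 93 genes met it, of which 84 were members.

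Membership also depended on the 3 summer animals. Leaving out each library in turn gave between 101 and 210 genes, and 69 of the 122 members met the rule in all 9 of these sets. The highest number, 210, came without summer euthermic 2, and included 113 members. Leaving out a library can only loosen the part of the rule on overlap, so part of such a rise is built in. Summer euthermic 2 was the highest of the 3 summer animals for 56 members, summer euthermic 1 for 38 and summer euthermic 3 for 28.

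A division of the libraries that crosses the stages was seen in a few genes. It came from 10 genes of at least 10 CPM somewhere whose libraries split into a low and a high set, each of 2 or more, at least 10-fold apart, and 6 of them set torpor late 1, arousal early 1, arousal early 2 and summer euthermic 2 against the other 5 libraries. The labels name no batch for this division, and 0 members were among those 10 genes. For the 6 genes making this division the rule fixed that in advance, since each had a summer library above a hibernating one. Within the side of 4, the mean of 3 hibernating libraries was at least 75% above the 1 summer library for 106 members, with a median of 2.57. Within the side of 5, the mean of 3 hibernating libraries was at least 75% above the mean of 2 summer libraries for 117 members, with a median of 2.46. Of all genes at 1 CPM or more, 4.06% and 3.23% reached that fold in the 2 sides. The rule, which set every hibernating library above every summer library, fixes the direction on both sides, so nothing is read from these values.

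The rule did not set arousal early directly against torpor late, and this comparison asks whether the members' levels differed between the 2 stages. It is not independent of the rule, which used both stage means. Of the genes without overlap, the rule left out 43 that fell short in torpor late alone and 29 in arousal early alone. In edgeR's quasi-likelihood test over 12780 genes, 0 of the 122 members were called higher and 0 lower at an adjusted p-value under 0.05, against a background of 0% of all genes tested. The smallest adjusted p-value of a member was 0.276. At an unadjusted p-value under 0.05, 8 members (6.56%) were higher and 2 (1.64%) lower in arousal early, against 4% and 3.48% of all genes tested. DESeq2 called 2 members (1.64%) higher and 0 lower. Of all 12780 genes tested it called 60 (0.469%) higher and 21 lower. A missed threshold with 3 animals a stage does not show that the levels were alike.

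The median log2 fold change of arousal early against torpor late was 0.10 over the members and -0.01 over all genes tested. It was above 0 for 78 members (63.9%), against 48.02% of all genes. This leaned on arousal early 2, since without that library the median over the members was 0.01 and 63 of the 122 were above 0, against 47.2% of all genes. The values ran from -0.92 to 2.34, with an SD of 0.43 over the members and 0.39 over all genes tested. In size, 5 members changed by at least 1 on the log2 scale. The share of all genes that did so was not taken, so nothing is read from that count. All 3 arousal early libraries lay above all 3 torpor late libraries for 9 members (7.38%), where 4.48% of all genes tested did so, and below them for 2 members (1.64%), where 7.3% did. The SD between libraries of a stage was 0.31 for the median log2 CPM of the members. It is a spread of single libraries and not the error of the median change, which was not estimated.

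**Figure D5:**
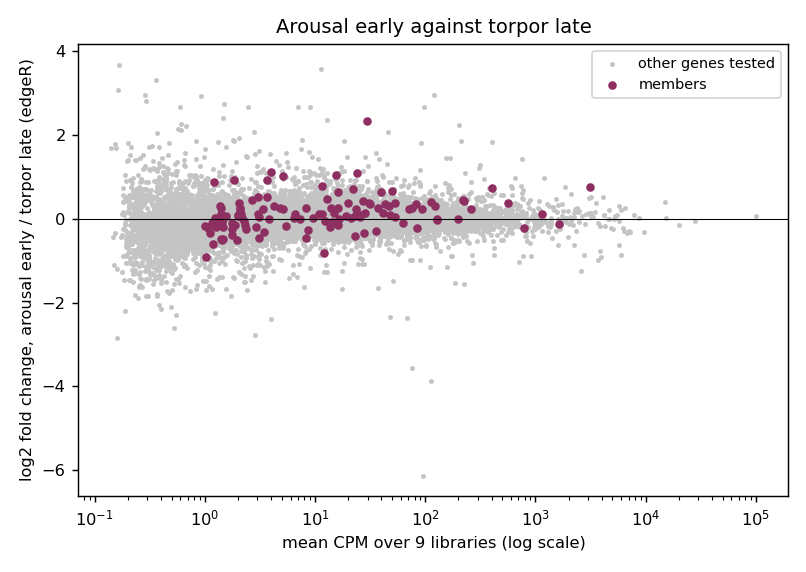
Log2 fold change of arousal early over torpor late (y axis, edgeR) against mean CPM over the 9 libraries (x axis, log scale) for the 12780 genes tested; each point is a gene and members are dark. The members lie from -0.92 to 2.34 with a median of 0.10, inside the range of the other genes, and 0 members were called.

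The 2 stage means lay within 25% of each other for 76 members. The arousal early mean was at least 25% above the torpor late mean for 31, and the torpor late mean at least 25% above the arousal early mean for 15. Means in arousal early were at least 2 times those in torpor late for 5 members, and the reverse was seen for 0. No share over all genes was taken for these counts, and the rule asked for both stage means to be raised. Closeness of the stages is therefore not read as a trait of the members. The fitted log2 change of ENSMAUG00000018544 was -0.46 (SE 1.09, edgeR adjusted p = 0.926) and that of ENSMAUG00000007358 was 1.06 (SE 1.04, edgeR adjusted p = 0.811). Over the alternatives these adjusted p-values ran from 0.324 to 0.9999 and from 0.599 to 0.9999, and both genes changed sign when single libraries were left out. Without arousal early 2, ENSMAUG00000007358 was at -0.96. Without torpor late 3, arousal early 1 or arousal early 2, ENSMAUG00000018544 was at 0.38, 0.05 and 0.05.

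The member with the smallest p-value in this comparison was at 1.95, 1.86 and 1.43 CPM in torpor late and 3.28, 3.21 and 3.40 CPM in arousal early, above 0.509, 0.539 and 0.496 CPM in summer euthermic. The stages did not overlap and the animals of each were close together. Its fitted log2 change was 0.93 (SE 0.18, edgeR adjusted p = 0.276). The member with the most reads differed by 0.76 (SE 0.38, edgeR adjusted p = 0.680), with all 3 arousal early libraries above all 3 torpor late libraries. The member with the narrowest hibernating range differed by 0.00 (SE 0.13, edgeR adjusted p = 0.9999).

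Against summer, the test across genes called part of the members, a count that the rule prepared and from which nothing is read. For torpor late, 38 members (31.1%) were called higher and 0 lower, against 0.673% and 0.696% of all genes tested. For arousal early, 71 members (58.2%) were called higher and 0 lower, against 2.21% and 1.6% of all genes tested. Both comparisons use the same summer animals. There were 37 members called in both, 1 in torpor late alone, 34 in arousal early alone and 50 in neither. Where leaving out one library moved these numbers by over 1.5 times, calls fell among all genes as well as among the members. For torpor late, where 86 of all genes were called higher with 9 libraries, 0 members and 0 of all genes were called without torpor late 1 or torpor late 2, and 9 members and 14 of all genes without torpor late 3. Without summer euthermic 1, 2 and 3, they were 6, 9 and 2 members and 8, 12 and 2 of all genes. For arousal early, where 282 of all genes were called higher with 9 libraries, 12 members and 21 of all genes were called without arousal early 2. Without summer euthermic 1, 2 and 3, they were 34, 33 and 14 members and 94, 97 and 23 of all genes.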

How the data were processed

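Per the labels' protocols, each animal's liver gave 437 ng of RNA for stranded mRNA libraries, which were sequenced as single reads of 75 bp. The authors deposited one table of raw read counts per Ensembl gene, not normalized, with one column per animal. The submitters' processing notes list STAR 2.7.0f; the counting program, strand setting, genome build and annotation release are not given in the sources used here, so overlapping genes and near-identical copies may share reads.

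The animal number in each column name gave its sample. Stages were taken from the labels, and replicates were numbered in accession order without pairing. The rule used CPM from column totals and a fold minimum of 1.75. Counts were fitted in R 4.3.3 with edgeR 4.0.16 (filterByExpr, 12780 of 17090 genes; TMM; quasi-likelihood over all 9 libraries) with Benjamini-Hochberg adjustment; the common biological coefficient of variation was 22.3%. Standard errors are the absolute log2 fold change over the square root of F. Alternatives used DESeq2 1.42.0, limma-voom (limma 3.58.1), RLE and upper-quartile scaling, other filters, subsets of libraries and a term for the side of the library division. Members, gene lists and the naming rule (the 2 members of largest smaller fold with a mean of at least 5 CPM) were chosen with earlier results of these data known. The lists of genes and cell type markers, and promoter motifs, were not analysed here, since 0 of 17090 identifiers were paired with a symbol. P-values set a difference between stages against the spread between animals within a stage, over these 9 animals.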

Additional observations from a re-analysis of the deposited data

How the results depend on the processing

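The number of genes meeting the rule was 130 under both TMM-scaled and RLE-scaled library sizes, with 121 members in each. It was 200 at 1.5-fold, 80 at 2-fold, 217 with no minimum CPM and 71 at a mean of 5 CPM or more, and 101 to 210 with one replicate left out. In arousal early against torpor late, DESeq2 called 2 members higher and 0 lower, beside 60 and 21 of all genes tested. The other 17 alternatives called 0 members in either direction, beside 0 to 3 higher and 0 lower of all genes tested. The members' median log2 fold change in this comparison ran from 0.01 to 0.22 over the alternatives. Members called higher in torpor late than in summer euthermic were 102 with DESeq2, 63 with a term for the division of the libraries, and 0 to 48 with one replicate left out, beside 534, 198 and 0 to 127 of all genes tested. Members called higher in arousal early than in summer euthermic were 106 with DESeq2 and 12 to 63 with one replicate left out, beside 776 and 21 to 259 of all genes tested. Without torpor late 2 and arousal early 2 together, 0 and 4 members were called, beside 0 and 4 of all genes. The rule prepared all of these calls against summer, so nothing is read from them or from their shifts. With one replicate left out, ENSMAUG00000007358 ran from -0.96 to 2.64 and ENSMAUG00000018544 from -3.11 to 0.38 (log2 fold change, arousal early against torpor late), with 1 and 3 values of reversed sign, at -0.96 and at 0.38, 0.05 and 0.05. For these shifts the cause was not tested. For calls against summer, the counts over all genes moved in the same direction with DESeq2 and with one replicate left out. With no filter on counts, members called higher rose to 43 (torpor late) and 74 (arousal early), while those of all genes fell to 84 and 266. Depth limits the 4 members with fewer than 10 counts in some library. No paired analysis was possible because each animal gave 1 library at 1 stage and the labels name no pairs across stages.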
